A study of Mus musculus with 2 samples.

Results

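Phospholipases A2 were followed in the skin of mice labelled as transgenic for one of them, Pla2g2f. The genes were 10 named members of the family: the secreted enzymes Pla2g2f, Pla2g2d, Pla2g2e, Pla2g5, Pla2g10 and Pla2g12a, the cytosolic enzymes Pla2g4a and Pla2g4b, the calcium-independent enzyme Pla2g6, and Pla2g7, a secreted hydrolase of platelet-activating factor. They were chosen by name and family, not by a measured value, though with earlier results of these data known. All 10 had at least 1 probe among the 27594 genes or transcripts of the array. Total RNA came from 25-day-old skin of Pla2g2f-transgenic mice (Pla2g2f-Tg/+) and of their littermate controls, both on a C57BL/6 background, with 4 mice pooled per genotype. Each of 2 two-colour Agilent arrays carried the transgenic pool against the control pool. Dyes were exchanged between them: transgenic RNA was in the Cy5 channel of array 1 and in the Cy3 channel of array 2. No source used here gives the promoter that drives the transgene, or the part of Pla2g2f that it transcribes.

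A phospholipase A2 cleaves the fatty acid from the middle carbon of a phospholipid's glycerol backbone, which leaves a free fatty acid and a lysophospholipid. The secreted enzymes are small, rich in disulfide bonds and dependent on calcium, and they act on membranes, lipoproteins and extracellular lipid. The cytosolic enzyme encoded by Pla2g4a prefers arachidonic acid and feeds the synthesis of prostaglandins and leukotrienes. In mouse skin, Pla2g2f is known from the suprabasal layers of the epidermis and Pla2g2e from the hair follicle.

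The signal of a gene was read by 60-base probes of the array, 14 for the 10 genes. The first 30 bases are shown for the 8 probes of the 4 genes that were bright enough to be measured, because the ratios of a gene's probes differed. Capitals mark stop triplets (TAA, TAG or TGA) in any reading frame. Where a gene had several probes, they are numbered from the brightest.

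Pla2g2f: gggctcctgcatgggtatattcctaTAGag
Pla2g12a probe 1: ggtggagctcctcttTGAcagcgtcatcca
Pla2g12a probe 2: tgcagcgacggatcgaagcctgttccacgc
Pla2g4a probe 1: aatttctgtgctgggaTGAtcaagccattt
Pla2g4a probe 2: gatgtacttcaacacacTGAacaacatTGA
Pla2g4b probe 1: tcgtTAGagacgggacactgTGAcacggaa
Pla2g4b probe 2: ggatcgacggggtcattTGAttctggagac
Pla2g4b probe 3: agccctgtcacagagtcTAGgctggaagct

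These probes had no run of 15 bases in common with the probe of any other gene on the array. All 14 probes of the family had at least 1 sense reading frame without a stop over their 60 bases, as did 78.3% of the probes of the array, so the letters do not tell coding from untranslated sequence. The array design placed the Pla2g2f probe on mm8 at chromosome 4, 138022707 to 138022766, on the minus strand. RefSeq, on GRCm38.p6, lists Pla2g2c, Pla2g2f, Pla2g2d, Pla2g5, Pla2g2a and Pla2g2e in this order on chromosome 4, with Pla2g2a as a transcribed pseudogene. The coordinates of Pla2g12a probe 2 and Pla2g4a probe 2 spanned 10005 and 10485 bases, so these 60-base probes were placed across at least 1 intron. Exon and untranslated-region boundaries on mm8 were not determined here.

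Separate pools for each array are not named in the labels, so the mean of both arrays counts as 1 replicate and no test across mice was possible. A gene counted as measured if array 1 flagged a probe of it as well above background in 1 channel or more, as held for 13341 of 41167 probes and 10456 genes. It was called by size if it was at least 2-fold apart the same way on each array. Ratios are log2 values of transgenic over control on the arrays' own scale, on which the median measured gene lay at -0.0079. Spike-in control RNAs lay 0.46 above 0 on that scale. The technical spread was 0.09 on array 1 and 0.10 on array 2, as the median standard deviation of 10 bright probes printed 10 times each. Basal keratinocyte markers such as Krt5 and Krt14 were measured for 7 of 7 genes and fibroblast markers for 6 of 6 in this whole skin. Of 10 listed suprabasal markers, 8 had a probe and all 8 were measured. Of 7 neutrophil markers, 6 had a probe and 0 were measured.

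Of the 10 phospholipase A2 genes, 4 were measured: Pla2g2f, Pla2g12a, Pla2g4a and Pla2g4b. The number called was 0 of 4, beside 5.4% of all measured genes. At 1.5-fold on each array the number was also 0 of 4, beside 12.1% of all. The median log2 ratio of the 4 genes was 0.14, beside -0.0079 over all measured genes. Of the 4, 2 lay above 0 on both arrays (Pla2g2f and Pla2g12a), 1 lay below 0 on both (Pla2g4a) and 1 changed side between the arrays (Pla2g4b). These signs hold on the arrays' own scale: relative to the spike-in RNAs the mean was -0.023 for Pla2g2f and 0.04 for Pla2g12a. Pla2g4a counted as measured only through its control channel on array 1, which favours a ratio below 0 there. No direction is read from Pla2g4a.

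**Figure D1:**
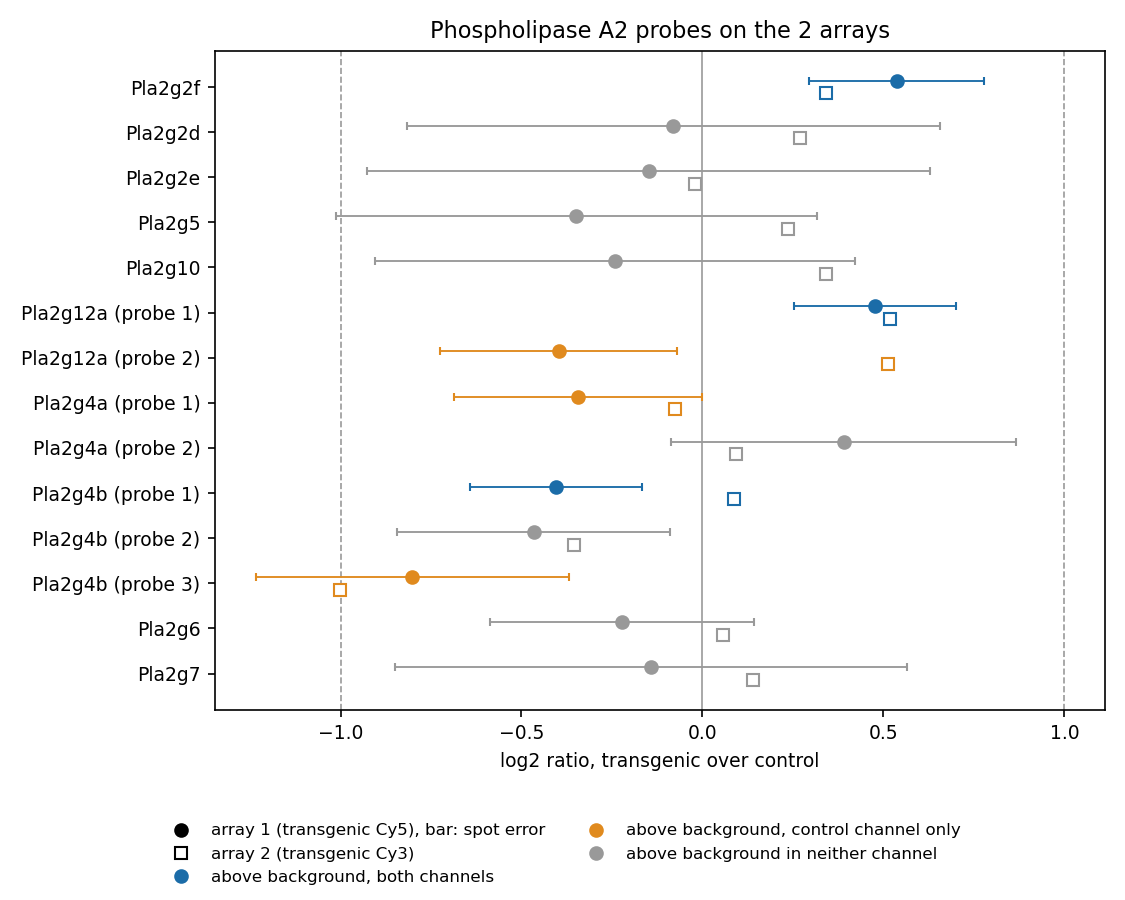
Log2 ratio of the transgenic over the control pool for each of the 14 probes, with array 1 as filled circles and array 2 as open squares. Bars are the deposited spot error of array 1, colours give the channels well above background, and dashed lines mark 2-fold. The Pla2g2f probe lies at 0.54 and 0.34, and no probe lies beyond 2-fold on both arrays.

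The transgene's own gene, Pla2g2f (NM_012045), encodes a secreted phospholipase A2 with a long carboxy-terminal tail. On array 1 its processed signal was 683 ± 74.3 in the transgenic channel and 471 ± 59.9 in the control channel (spot error, 1 spot), and both channels were well above background. Array 1 gave a log2 ratio of 0.54, with a spot error of 0.24, and array 2 gave 0.34. The mean of 0.44 is a 1.36-fold higher level in the transgenic pool. The 2 arrays differed by 0.20 and lay on the same side of 0. It did not pass the 2-fold rule.

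Set against the rest of the array, 1574 of the 10456 measured genes (15.1%) had a higher ratio than Pla2g2f. Among the 3300 other measured probes within 0.5 log2 units of its brightness, 418 (12.7%) lay above it, and their arrays differed by a median of 0.26. The difference between the arrays for Pla2g2f was thus no larger than is usual at this brightness. Its value depended on the scale: relative to the spike-in RNAs its mean over the arrays was -0.023. Spike-in ratios followed the dye and not the pool, so only their mean over both arrays gives a shift, and no value per array is given on that scale. The probe checks the label only if the transgene's transcript contains its 60 bases, which no source used here states.

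The raw signal of the spot was low. The mean pixel signal was 76.3 over a local background of 33.5 in the transgenic channel, and 74.5 over 35.0 in the control channel. The net signals were 42.8 in the transgenic (Cy5) and 39.5 in the control (Cy3) channel. The 314 negative control spots reached at most 6.52 in the transgenic and 19.8 in the control channel. The Pla2g2f spot therefore lay above every negative control spot in each channel. Background and dye steps of the scanner software, not the net signals alone, give the processed ratio.

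**Figure D2:**
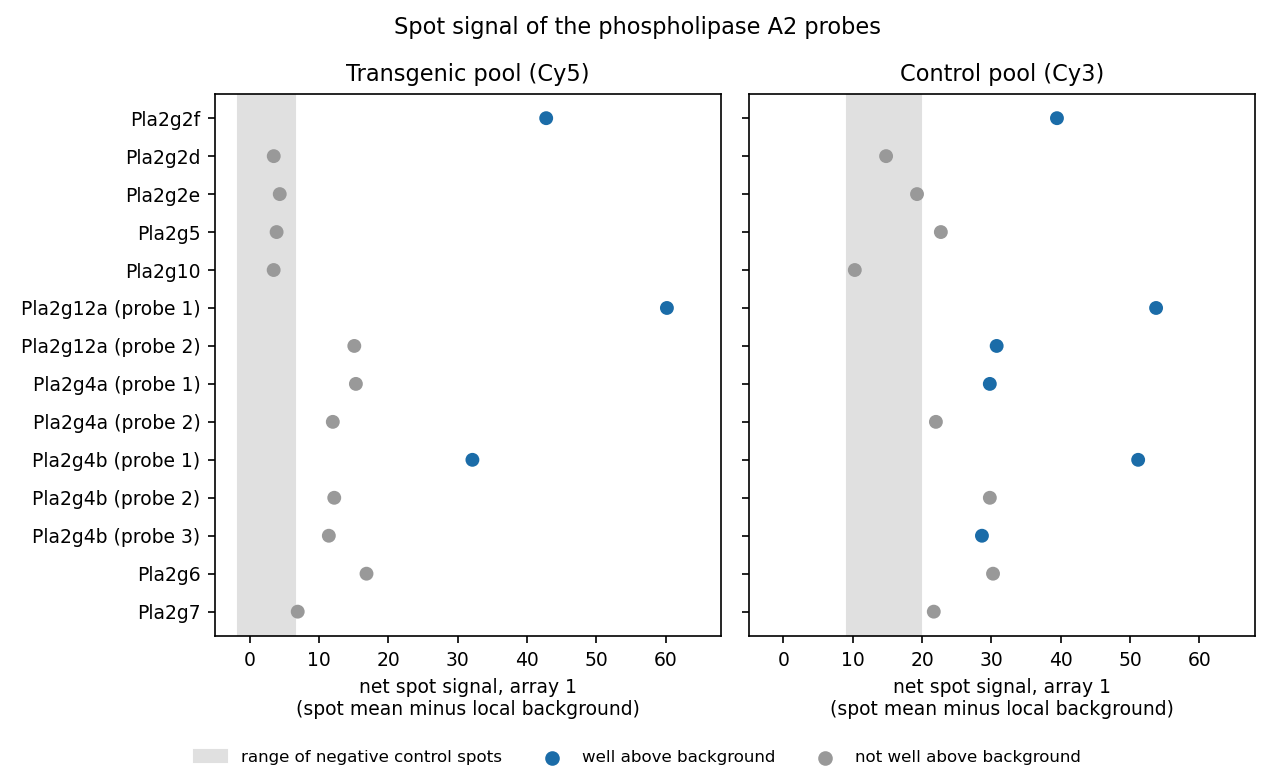
Net spot signal (spot mean minus local background) of the 14 probes on array 1, for the transgenic pool in Cy5 on the left and the control pool in Cy3 on the right. Grey bands give the range of the 314 negative control spots, up to 6.52 in Cy5 and 19.8 in Cy3. Pla2g2d, Pla2g2e and Pla2g10 lie inside the band in both channels, and the dyes have different scales.

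Suprabasal keratinocyte markers, the layer from which Pla2g2f is known, were measured for all 8 genes with a probe among 10 listed. Their median log2 ratio was 0.64, or 0.18 relative to the spike-ins. Their summed signal on array 1 was 135369 in the transgenic and 74940 in the control channel, of which Krt10 gave 80509 and 40400. The ratio of Pla2g2f lay below that of Krt1 at 2.26, Krt10 at 0.99, Krtdap at 0.70, Sbsn at 0.64 and Ivl at 0.64 by their brightest probes, and above those of Calml3 at 0.24, Dsc1 at -0.16 and Dsg1a at -0.73. The other measured Sbsn probe lay at -0.034, below Pla2g2f. Of these keratinocyte genes Krt1 alone was called. In RNA of a whole tissue, more cells of a type and more RNA per cell cannot be told apart, and the part of suprabasal cells in the Pla2g2f value was not tested.

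Pla2g12a encodes a small secreted phospholipase A2 that is widely expressed and weakly active. Its bright probe 1 (NM_183423; mm8, chromosome 3, 129886873 to 129886932) had a processed signal of 970 ± 101 in the transgenic and 698 ± 79.0 in the control channel of array 1. The log2 ratios were 0.48 and 0.52 on arrays 1 and 2, a mean of 0.50 or 1.41-fold. This was the highest mean among the 14 probes, and its arrays differed least, by 0.04.

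The other Pla2g12a probe differed on array 1. Probe 2 (NM_023196; 129870948 to 129880952 on the same chromosome) had a signal of 231 ± 37.3 in the transgenic channel, where it was not well above background, and 304 ± 47.8 in the control channel. Its ratios were -0.40 (array 1) and 0.51 (array 2) on the log2 scale, with a mean of 0.06. On array 2 the probes of this gene lay within 0.01 of each other, and on array 1 on opposite sides of 0. With both probes averaged, Pla2g12a lay at 0.28, and relative to the spike-ins probe 1 lay at 0.04.

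Pla2g4a encodes the arachidonate-selective cytosolic enzyme. Probe 1 (NM_008869; mm8, chromosome 1, 151592221 to 151592280, minus strand) had a signal of 225 ± 38.2 in the transgenic channel, not well above background, and 286 ± 46.6 in the control channel. The log2 ratios were -0.34 and -0.08, a mean of -0.21, with a spot error of 0.34 on array 1. Probe 2 was well above background in neither channel, and nothing is read from its log2 ratios of 0.39 and 0.09. Probe 1 lay inside 2-fold on both arrays.

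Pla2g4b encodes another cytosolic phospholipase A2 and had 3 probes on mm8 chromosome 2. Probe 1 (BC098210; 119733316 to 119733375) had a signal of 505 ± 58.3 in the transgenic and 668 ± 76.4 in the control channel, both well above background. The log2 ratios of -0.40 (array 1) and 0.09 (array 2) had a mean of -0.16. Its arrays fell on opposite sides of 0 and differed by 0.49.

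Probe 3 of Pla2g4b, named from the same transcript, starts only 75 bases upstream (119733241 to 119733300) and had the lowest ratio of the family. Its signal was 153 ± 41.2 in the transgenic channel, not well above background, and 267 ± 45.5 in the control channel. The log2 ratios were -0.80 and -1.0, a mean of -0.90, which corresponds to 0.535 of the control level. It was the only one of the 14 probes at least 1.5-fold apart the same way on each array. It was measured through the control channel only, which favours a ratio below 0 on array 1. The lowest signal that array 1 flagged as well above background in the transgenic channel was 190. With the dim channel put at 190, the transgenic level was 1.40-fold lower on array 1. Other unflagged spots of this channel reached higher signals, such as 269 for C1qb, so the 1.40 of probe 3 is not a lower bound. Because the brightest probe stood for a gene, this probe did not count towards the calls. With its measured probes averaged, Pla2g4b lay at -0.53.

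Probe 2 of Pla2g4b (BC016255; 119723675 to 119723734) lies 9641 bases upstream of probe 1 and was well above background in neither channel. Its log2 ratios were -0.47 and -0.36. RefSeq lists the gene Jmjd7 next to Pla2g4b, and which of these genes this probe reads was not determined. No direction is read from this probe.

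The remaining 6 genes had 1 probe each, and none (0 of 6) was well above background in either channel of array 1, as held for 27826 probes of the array. Dim probes carry little information on a ratio: across those 27826, the central 95% of mean log2 ratios ran from -0.50 to 0.54, and 43.3% had opposite signs on the arrays. The means of the 6 genes lay between -0.09 and 0.10, inside that range, and 5 of the 6 had opposite signs. Their log2 ratios are given below as deposited values, and no difference between the pools is read from them. Their transcripts were not detectable well above background at this signal, which is not the same as absent.

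Pla2g2d, an enzyme known from dendritic cells and resolving inflammation, had a signal of 90.0 ± 29.0 in the transgenic and 95.1 ± 37.2 in the control channel. Its log2 ratios were -0.08 and 0.27. Both channels held surrogate values, which the scanner software writes in place of signals too close to background. Of 8 listed markers of dendritic and Langerhans cells, H2-Ab1, H2-Eb1 and Cd74 alone were measured, and these 3 were called higher. Their median was 1.42, or 0.96 relative to the spike-ins. On that scale H2-Ab1 and Cd74 had means of 0.96 and 0.66, inside 2-fold, and H2-Eb1 at 1.04 did not pass the rule on each array. The other listed genes, among them Itgax and Cd207, were not measured, so nothing is read from them. The summed signal of the 3 measured genes on array 1 was 9389 in the transgenic and 3815 in the control channel. The part of dendritic and Langerhans cells in the Pla2g2d value was not tested.

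Pla2g2e, known from the hair follicle of the mouse, had signals of 85.0 ± 29.4 in the transgenic and 94.2 ± 38.3 in the control channel, again surrogates in both. Its log2 ratios were -0.15 and -0.02. Of 9 listed hair shaft keratins, 7 had a probe. Of these, 4 were well above background in both channels and were called lower, with means from -4.87 to -2.14 by their brightest probes. The other measured Krt33b probe lay at -1.68. Another 3 (Krt31, Krt34 and Krt86) were well above background in the control channel only. On array 1 the transgenic signal was 11.3-fold lower for Krt31 and 15.6-fold lower for Krt34, as ratios of the processed signals and not as lower bounds. For Krt86, with the dim channel put at 190, it was 16.5-fold lower, which is not a lower bound either. The summed signal of these 7 genes was 10079 in the transgenic and 83320 in the control channel of array 1. A like change of Pla2g2e could not be seen on a probe that lay within the range of the negative controls in both pools.

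Pla2g10, known from gut epithelium, sperm and the outer root sheath of the hair, had signals of 94.3 ± 29.0 in the transgenic and 111 ± 37.2 in the control channel. Its log2 ratios were -0.24 and 0.34. Pla2g5, known from macrophages, endothelium and heart, had signals of 93.8 ± 29.1 in the transgenic and 119 ± 39.2 in the control channel, with log2 ratios of -0.35 and 0.24. The net signals of Pla2g2d, Pla2g2e and Pla2g10 lay within the range of the negative control spots in both channels. That of Pla2g5 did so in the transgenic channel only.

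Pla2g6 encodes the calcium-independent enzyme iPLA2beta, which takes part in membrane remodelling. Its signal was 209 ± 36.1 in the transgenic and 244 ± 44.2 in the control channel (NM_016915; mm8, chromosome 15, 79114010 to 79114069, minus strand). Its log2 ratios of -0.22 and 0.06 had a mean of -0.08. The net signals of 16.8 in the transgenic and 30.2 in the control channel lay above all negative control spots in both channels, although neither passed the software's flag.

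Pla2g7, a platelet-activating factor acetylhydrolase made largely by macrophages, had signals of 94.2 ± 29.4 in the transgenic and 104 ± 38.6 in the control channel, and log2 ratios of -0.14 and 0.14. Macrophage markers had a median of 0.90, or 0.44 relative to the spike-ins, over 7 measured of 8 listed genes. Of the 7, Adgre1, Lyz2 and C1qa were called higher. Relative to the spike-ins the means of these 3 were 0.85, 0.77 and 0.86, inside 2-fold. One of the 3, C1qa, was dim in the control channel. The summed signal of the 7 genes was 26611 in the transgenic and 11510 in the control channel, of which Lyz2 gave 22467 and 9424. The part of macrophages in the Pla2g7 value was not tested.

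Signs over the 14 probes, 8 of them dim in both channels, differed between the arrays. On array 1, where the transgenic pool carried Cy5, 11 of the 14 probes lay below 0, and on array 2, where it carried Cy3, 4 did. Of the 8 dim probes, 7 lay below 0 on array 1 and 2 on array 2, and of the 6 measured probes 4 and 2. Over all dim probes 38.0% lay below 0 on array 1 and 32.3% on array 2, and over measured probes 51.8% and 51.4%. Averaging over the dye exchange, as done here, keeps a probe's preference for a dye out of the mean but not out of either array. The part of dye preference in these counts was not tested.

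**Figure D3:**
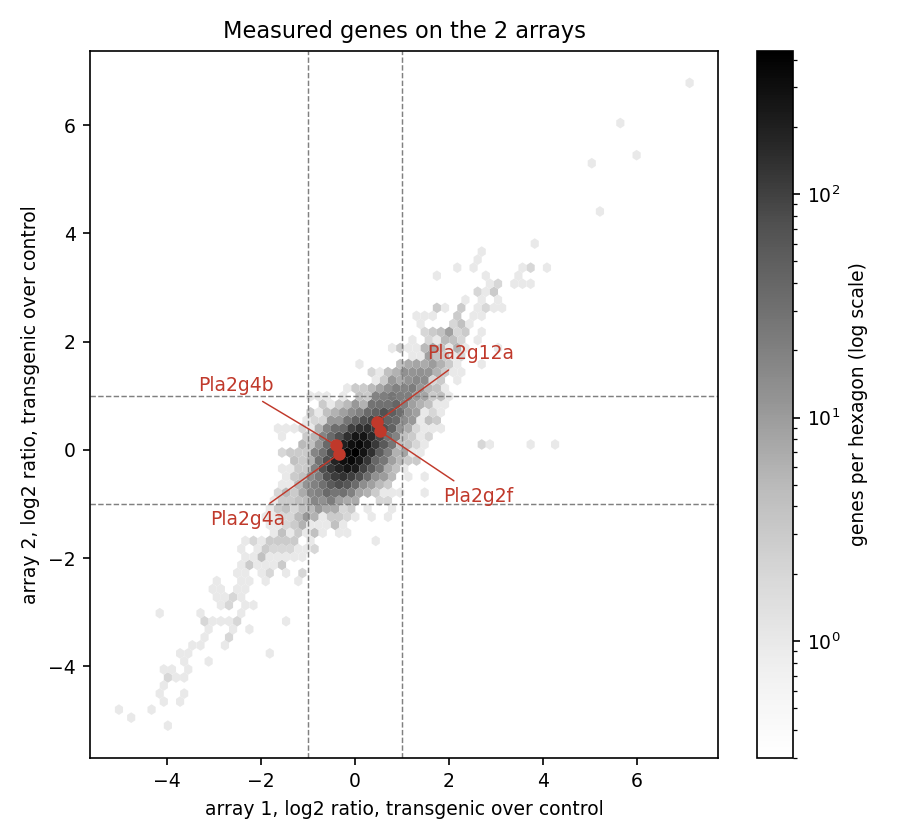
Log2 ratio of transgenic over control on array 1 (x axis) and array 2 (y axis) for 10456 measured genes, shaded by the number of genes per hexagon on a log scale. The 4 measured phospholipase A2 genes, in red, lie within the central cloud, inside the dashed lines that mark 2-fold on each axis.

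The other genes that make, break down or sense the same lipids were taken as 7 lists with 53 genes. A probe was present for 50, and 28 were measured. Of these, 2 were called higher and 0 lower, beside 3.72% of all measured genes called higher and 1.68% lower, and the median log2 ratio was 0.23, or -0.23 relative to the spike-ins. Both called genes were patatin-like enzymes of neutral lipid. Pnpla5, a lipase of the patatin family, had log2 ratios of 2.59 and 3.42. Its control channel on array 1 was not well above background. With that channel put at 199, the lowest control signal flagged as well above background, the transgenic level was 4.65-fold higher. This is not a lower bound. Pnpla2, the adipose triglyceride lipase, had a signal of 9082 in the transgenic and 4038 in the control channel, with log2 ratios of 1.17 and 1.14, or 2.23-fold.

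The patatin-like list had 7 genes, of which 6 had a probe and all 6 were measured, with a median of 0.69. Pnpla3 lay at 0.79, Pnpla8, a calcium-independent phospholipase of mitochondria and peroxisomes, at 0.58 and Pnpla7, a lysophospholipase, at 0.54. Pnpla6 had a mean below 0, at -0.48, from log2 ratios of -1.07 and 0.11. Its transgenic channel was dim on array 1. Markers of sebaceous gland and of fat, tissues rich in lipases, were measured for 4 of 8 and 6 of 7 listed genes. Their medians were 2.16 (4 of 4 measured genes called higher) and 1.49 (6 of 6 called higher). Relative to the spike-ins these medians were 1.70 and 1.03. On that scale the fat markers Adipoq, Plin1 and Retn lay at 0.96, 0.94 and 0.88, inside 2-fold. Cfd, Fabp4 and Cidec lay at 1.61, 1.09 and 1.37. On array 1 the measured sebaceous and fat markers summed to 43837 and 342915 in the transgenic channel. In the control channel the sums were 9165 and 106215. Fabp4 alone gave 231178 in the transgenic and 75394 in the control channel of the fat sums. The part of these cells in the patatin-like values was not tested.

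Relatives closest to the 10 genes gave no measured value. The secreted Pla2g1b, Pla2g2a, Pla2g2c, Pla2g3 and Pla2g12b and the group IV genes Pla2g4c, Pla2g4e and Pla2g4f had 11 probes, of which 0 were well above background. Their mean log2 ratios lay between -0.16 and 0.59, and neither an order nor a difference is read from them.

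Among platelet-activating factor acetylhydrolases, the lysosomal phospholipase A2 and related enzymes, 7 of 8 genes were measured, 0 were called and the median was -0.055. Of the 7 genes, 3 lay above 0 on both arrays and 3 below. Plaat3, the phospholipase of adipocytes and lens, lay at 0.79 and 0.89 on the arrays, or 1.79-fold, and Pafah2 at a mean of 0.45. The lysosomal Pla2g15 lay at 0.02 on array 1 and 1.56 on array 2, so its mean of 0.79 came from 1 array. Its transgenic channel was dim on array 1. Of 5 phospholipases A1 and B, Ddhd2 alone was measured, at 0.32.

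Enzymes that reacylate or degrade lysophospholipids, the product of a phospholipase A2, were listed with 14 genes, of which 13 had a probe. Measured were 11, with 0 called and a median of -0.16. Lpcat3, which reacylates lysophosphatidylcholine, had log2 ratios of 0.75 and 1.17, the glycerophosphocholine phosphodiesterase Gpcpd1 1.0 and 0.63, and Mboat7, which acylates lysophosphatidylinositol, 0.68 and 0.82. Of the 11 genes, 3 lay above 0 on both arrays and 7 below. The ratios were therefore divided in sign within the list.

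Of 10 receptors 3 were measured, with 0 called and a median of 0.50. Pla2r1, a receptor that binds secreted phospholipases A2, had log2 ratios of 1.54 and 0.82. It was dim in the control channel, with a signal of 300 in the transgenic channel and 103 in the control channel of array 1. With the control channel put at 199, as for Pnpla5, the transgenic level was 1.51-fold higher, again not a lower bound. The lysophosphatidic acid receptor Lpar1 lay at a mean of 0.50, and Lpar6, a receptor required for human hair growth, at -0.44.

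**Figure D4:**
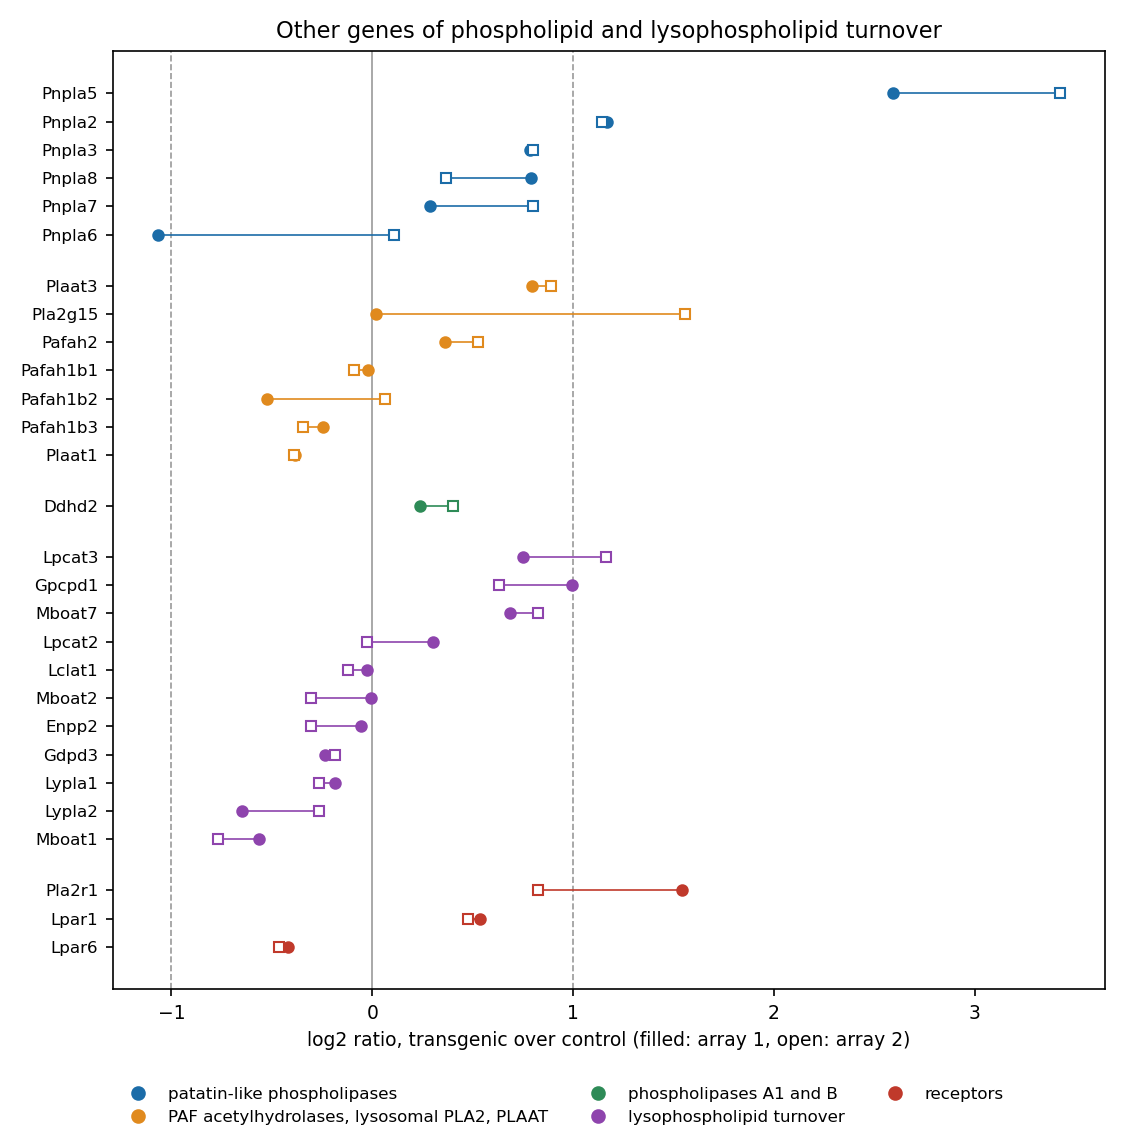
Log2 ratios of transgenic over control for the 28 measured genes of phospholipid and lysophospholipid turnover outside the 10 members, grouped by list (colour), with array 1 filled and array 2 open. Pnpla5 and Pnpla2 alone lie beyond the dashed 2-fold line on both arrays, and a long connecting line, as for Pla2g15, marks arrays that differ.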

How the data were processed

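Per the labels, 500 ng of total RNA from each pool was labelled and hybridised in 2 channels. Agilent Feature Extraction 9.5.1.1, per the file headers, made the deposited spot intensity values: it subtracted background, removed spatial trends, normalised the dyes and replaced dim values by surrogates, which compresses ratios near background. Its deposited log10 ratio error is an error of 1 spot. The deposited value table holds log10 of Cy5 over Cy3: for array 1 it equalled the scanner signals at 43790 of 43790 features within 1e-06. For array 2 direction and scale rest on the data: leaving out controls, 41534 features had a correlation of -0.579 between the columns, and 10 spike-ins one of 1.00 with a slope of 1.00. Column medians were 0.0145 and -0.0243. Signals and flags of array 2 were not analysed here.

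Values were turned to log2 of transgenic over control and averaged over the arrays. Control spots and 29 outlier spots were left out, and the brightest measured probe stood for a gene. Probes were named through RefSeq (GRCm38.p6) by accession (24370), symbol (6300) or synonym (2425). For 8072 the name on the array stayed. An alternative used limma 3.58.1. Centring on the spike-ins took the same value, their mean over both arrays, from each array. The members and lists were chosen with earlier results of these data known. Named are all members, the list genes that pass the size rule and up to 3 further genes per list by absolute mean. Pnpla6 was named in addition, as the only measured patatin-like gene with a mean below 0. Marker lists are given mainly as counts. The number of arrays limits the precision.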

Additional observations from a re-analysis of the deposited data

How the results depend on the processing

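The call of 0 phospholipase A2 genes held under all 9 alternatives run. The log2 ratio of Pla2g2f ranged from 0.34 to 0.54 with either array left out. It was -0.023 when centred on the spike-in probes, a shift of 0.46 that applies to every gene, and 0.29 with normexp and loess on array 1. For the other members the same settings gave Pla2g12a 0.04 and 0.38, Pla2g4a -0.67 and -0.064, and Pla2g4b -0.62 and -0.023. The number of all genes 2-fold apart was 565 in the main setting, 163 with normexp and loess, 329 with both channels well above background, and 1261 at 1.5-fold. Centred on the spike-ins it was 635, of which 27.7% were higher, against 68.8% in the main setting. With an array left out it ranged from 779 to 842. Of the lipid turnover genes 2 were called in the main setting and 4 with either array left out. Array 2 alone added Lpcat3 and Pla2g15, and array 1 alone added Pla2r1 and, as lower, Pnpla6. Called were 1 with normexp and loess (Pnpla2), 1 with both channels well above background (Pnpla2) and 8 at 1.5-fold. Centred on the spike-ins, Pnpla5 was called higher and Mboat1 lower. Each array pairs the transgenic with the control RNA. No test across pairs was possible, because the labels name no separate pools and both arrays were averaged as 1 replicate. The spike-in and probe choices were made with earlier results known, and the causes of these changes were not tested. Of the 14 probes, 8 were well above background in neither channel, and no difference was read from them.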
